A study of Peromyscus maniculatus with 10 samples.

Results

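The genes described here are the expressed single-exon genes of cultured deer mouse fibroblasts. A gene was taken when it lay on a numbered chromosome, when its annotated exons merged into exactly 1 interval, and when its counts averaged at least 10 over the libraries. This gave 900 genes out of 5302 single-exon genes on numbered chromosomes and out of 25394 genes in the whole table. The genes were chosen by their measured mean count and by exon number, so both are given as a description and not as a result.

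Fibroblasts were grown from ear tissue of 10 male *Peromyscus maniculatus bairdii* of the BW stock, a closed captive colony, at 3 weeks of age. The tissue was digested with collagenase and the cells were kept in RPMI medium. Each animal gave 1 library, all 10 libraries form a single group, and the labels name no treatment. Every sample title ends in -C, a suffix whose meaning is not stated. Animals are called by their number, and every comparison below is between genes or between animals of this group.

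In single-exon genes the transcript needs no splicing. In mammals such genes include many histones, G protein-coupled receptors, odorant receptors and fast-responding transcription factors, as well as retrocopies of spliced mRNAs and small non-coding RNAs such as snoRNAs, many of which sit inside introns of other genes. The table names genes by Ensembl identifier, and 0 of 25394 identifiers were matched to a symbol, so no gene below is given a function and the fibroblast label was not checked against marker genes.

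Few single-exon genes were expressed. The 900 genes are 17.0% of the 5302 annotated ones, while 2626 of them (49.5%) had no count in any library. Of 18268 genes of 2 or more merged exons on the same chromosomes, 12436 (68.1%) reached that mean count and 7.88% had no count. The gap was present at every length. Under 200 bases, 164 of 2445 single-exon genes were expressed (6.71%), against 40.4% of the genes of more exons. From 200 to under 1000 bases it was 424 of 2305 (18.4%) against 56.2%. From 1000 to under 3000 bases it was 295 of 525 (56.2%) against 74.2%, and at 3000 bases or more 17 of 27 (63.0%) against 83.8%.

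**Figure D1:**
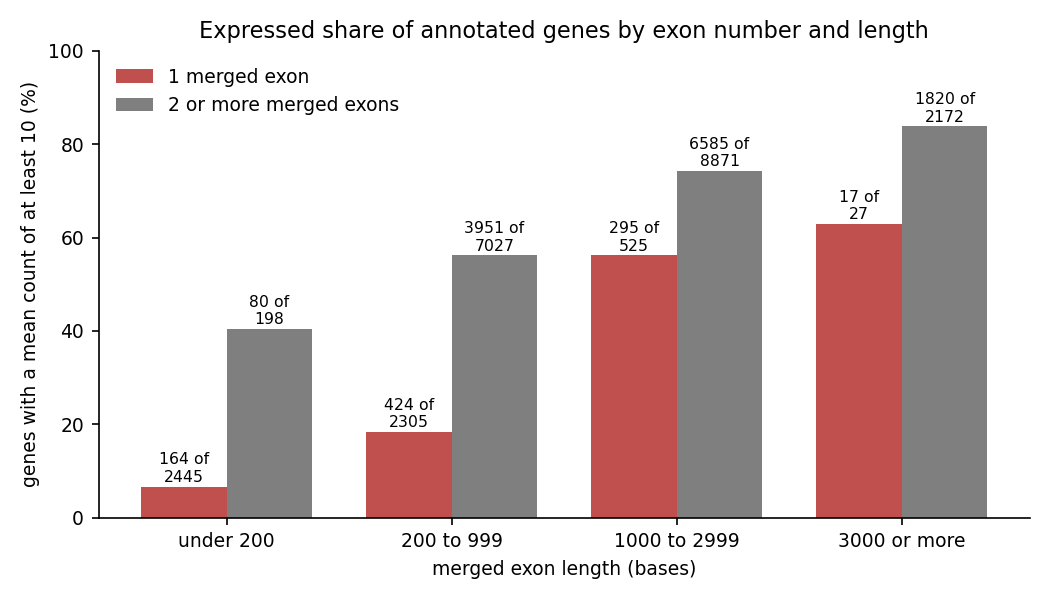
Share of annotated genes on numbered chromosomes that were expressed, at a mean count of 10 or more (vertical axis, percent) by merged exon length (horizontal axis, bases), for genes of 1 merged exon and of 2 or more; the numbers over the bars are expressed genes of annotated genes. The single-exon bars stand below the others in each length class, from 6.71% under 200 bases to 63.0% at 3000 bases or more.

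The length of the 900 genes ran from 52 to 4788 bases, with a median of 684 (quartiles 294 and 1170). A length that is a multiple of 3 is what an open reading frame gives, and 801 of the 900 lengths (89.0%) were multiples of 3. That share depended on size. It was 73 of 164 below 200 bases, 416 of 424 from 200 to under 1000 bases, and 295 of 295 and 17 of 17 in the longer classes. It was 63.8% over all 5302 annotated single-exon genes and 31.2% over those under 200 bases, against 91.9% over the expressed genes of more exons. Lengths that are nearly all multiples of 3 are what gene models of coding length with hardly any UTR would give. This was not tested, since the sequences were not analysed here. Below 200 bases, 5.41% of the annotated genes whose length was not a multiple of 3 were expressed, and 9.55% of those whose length was. The expressed genes of the first kind had a median level of 7.42 CPM (counts scaled to a common library size) per kb and those of the second kind 15.6. A read pair counted as soon as it met the exon, and reads of 150 bases are longer than many of these exons. How this bears on the levels per kb of genes under 200 bases was not tested, so those levels are uncertain.

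The genes lay on all 23 numbered chromosomes, 479 on the plus and 421 on the minus strand. Chromosome 1 held 115 of them. They made up 3.58% of the expressed genes of chromosome 15 and 9.54% of those of chromosome 5. Most of them (665, 73.9%) stood neither inside nor within 5 kb downstream of another gene on their strand. A further 143 (15.9%) began at most 5 kb after the 3' end of a gene on the same strand, against 8.47% of the expressed genes of more exons. Of the 359 annotated single-exon genes in that position 39.8% were expressed, the highest share of any position class. Inside an intron of another gene were 45 genes on the opposite strand and 37 on the same strand, 8.93% and 6.06% of the annotated single-exon genes there. The remaining 10 shared exon bases with another gene.

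Levels were mostly low. The median of the mean counts was 149.5. A mean count below 100 was found for 388 genes, of at least 1000 for 145 and of at least 10000 for 5. A count of at least 10 in every library was reached by 726 genes, 16 had a 0 in some library, and 27 had a median count below 10. Just inside the threshold, with a mean count of 10.0, were ENSPEMG00000029162, ENSPEMG00000026954 and ENSPEMG00000009439. Just outside it were ENSPEMG00000011040 and ENSPEMG00000028385 at 9.9 and ENSPEMG00000007016 at 9.8. Per kb of merged exon the median level was 9.18 CPM (quartiles 3.18 and 29.0), against 18.2 for the expressed genes of more exons.

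The highest level per kb among genes of at least 200 bases was that of ENSPEMG00000015100 (HU_Pman_2.1 chr15:42057618-42058013, plus strand, 396 bases). It stood at 1043 ± 217 CPM per kb (SD, n = 10), and its counts ran from 8587 through a median of 10398.5 to 16521. Next came ENSPEMG00000017209 on chromosome 10 at 511.7 ± 45.3 CPM per kb and ENSPEMG00000019183 on chromosome 11 at 491.5 ± 80.5, whose ranges over the animals overlapped. ENSPEMG00000015023 (chr1:81447904-81449052, minus strand) had the highest mean count, 15184.9, and 482.8 ± 120.2 CPM per kb. ENSPEMG00000027947 on chromosome 16, of the same length of 1149 bases, had a mean count of 13627.9 and 432.8 ± 102.1 CPM per kb. These are genes of equal length on different chromosomes, with R = 0.313 over 10 animals. Leaving out 1 animal, R went from 0.134 (without 36798) to 0.683 (without 36772). The CPM ratio of ENSPEMG00000015023 to ENSPEMG00000027947 went from 0.767 to 2.15. Of the 5 genes whose mean count was 10000 or more, ENSPEMG00000027674 on chromosome 3 varied least between animals. Its value was 11.1% by edgeR's moderated estimate of variation, described below. It stood at 390.7 ± 19.8 CPM per kb, with counts from 9386 to 13092. Also among the highest mean counts was ENSPEMG00000014944 on chromosome 8, with 14337.8.

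Sequencing gave 20811334 to 31912526 counts per library. The 900 genes took 1.90 ± 0.0939% of them (SD, n = 10). The share was lowest in animal 36798 (1.77%) and highest in animal 36905 (2.04%), with a median of 1.88%. The 37 and 45 genes inside introns together took 0.110% to 0.145% of the counts, lowest in animal 36764, and the 164 genes under 200 bases 0.0726% to 0.0872%. In each library the 6 most abundant of the genes held 12.6% to 15.8% of the counts on all 900, and the 100 most abundant 58.4% to 62.1%. A count was seen for 893 to 899 of the genes, and at least 10 counts for 832 to 868.

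**Figure D2:**
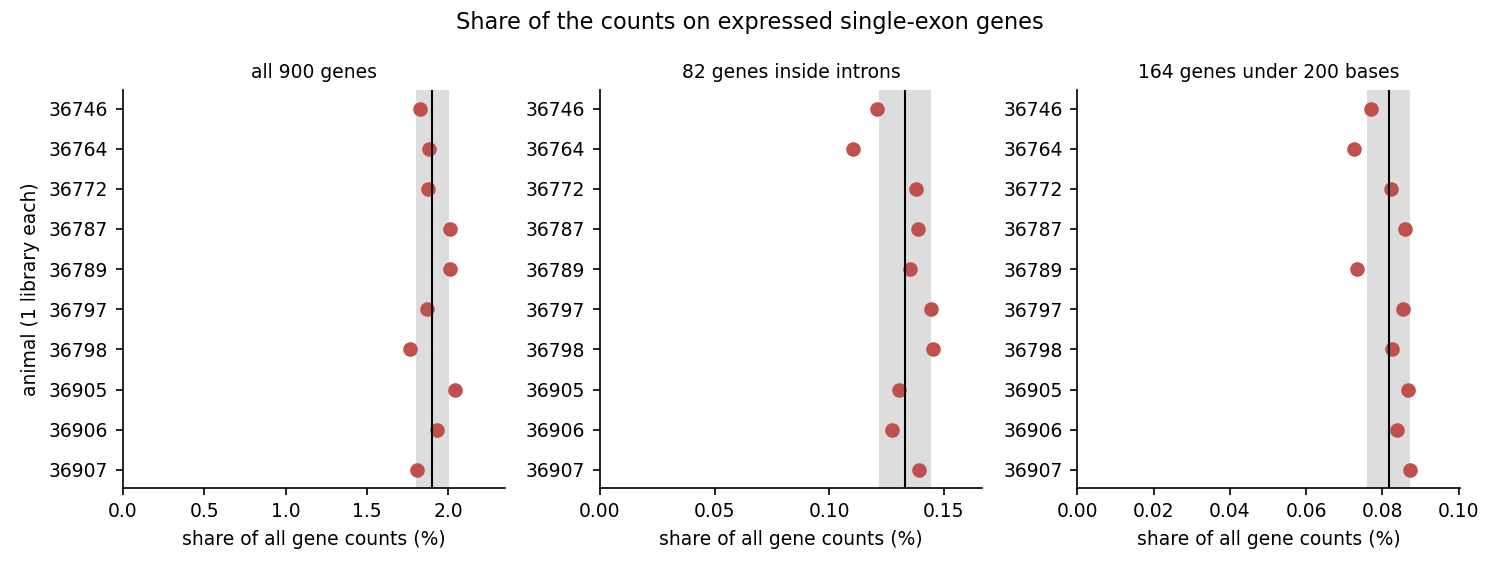
Share of all gene counts (horizontal axes, percent) that fell on the 900 expressed single-exon genes, on those inside introns and on those under 200 bases, with 1 point per animal. The line is the mean and the grey band the SD over 10 animals; the share on all 900 genes lies between 1.77% and 2.04%.

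Whether these shares went with sequencing depth was tested over the 10 libraries. Pearson's r of the share on all 900 genes with the total count was -0.597 (p = 0.0685 by permutation, two-sided), and the rank correlation rho -0.539 (p = 0.114). After Benjamini-Hochberg adjustment over 6 such tests both p-values were 0.342. Without the animals with the most extreme totals, 36789 and 36907, r was -0.377, and for the genes under 200 bases it turned from positive to -0.230. For the genes inside introns r was 0.116 (permutation p = 0.742) and rho 0.455 (p = 0.193), and for those under 200 bases 0.373 (p = 0.287) and 0.370 (p = 0.296), with adjusted p-values of 0.356 to 0.742. Without animal 36764, r for the genes inside introns was 0.525, without 36798 it was -0.06, and without both 36764 and 36789 it was 0.716 (permutation p = 0.0465, not adjusted). None of the 6 relations passed the threshold. Without animal 36764, r for the genes under 200 bases was 0.726 (permutation p = 0.0274, not adjusted), and without animal 36789 it was 0.00112 (permutation p = 0.998). Without animal 36746 or 36787, r for all 900 genes was -0.691 or -0.670 (permutation p = 0.0378 and 0.0490, not adjusted).

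The spread between animals was measured as edgeR's biological coefficient of variation (BCV). It estimates the standard deviation relative to the mean that remains after counting noise. The estimate for each gene is moderated toward genes of similar counts. It can therefore lie above or below the SD over the mean of the gene itself. The median BCV over the 900 genes was 26.9%, against 18.5% over the expressed genes of more exons, which had higher counts. At matched mean count the order depended on the level. At mean counts of 10 to under 100 the single-exon genes had the lower median, 33.7% against 40.3%. At 100 to under 1000 the medians were 19.8% and 19.0%, and at 1000 to under 10000 they were 15.9% (140 genes) and 13.2% (4739 genes). At 10000 or more the 5 single-exon genes had a median of 22.9%, against 15.9%. Genes are not replicates and the BCV is a description without a test.

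**Figure D3:**
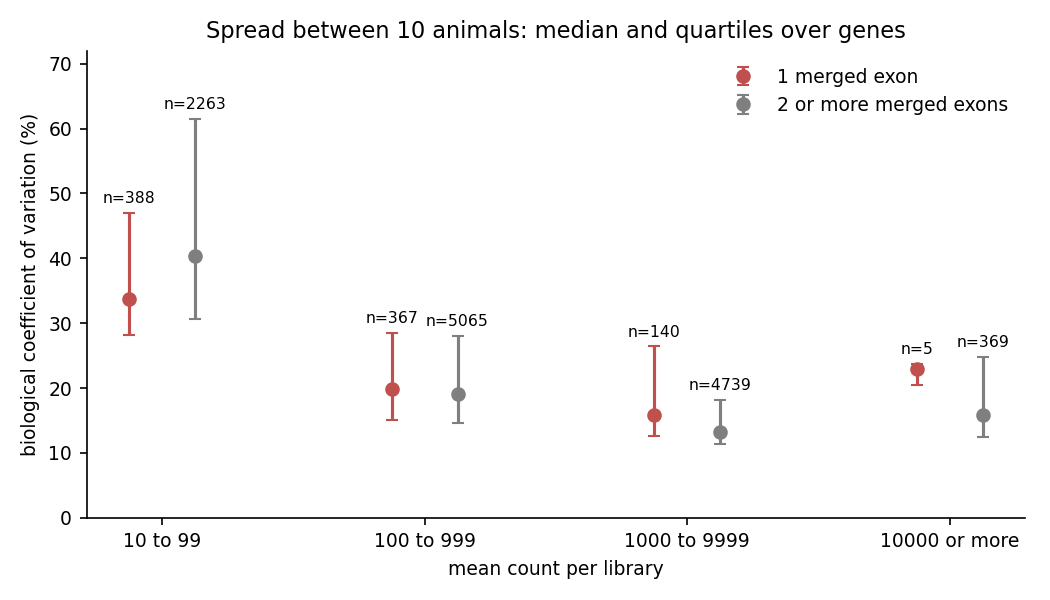
Biological coefficient of variation between 10 animals (vertical axis, percent) by mean count per library (horizontal axis), for expressed genes of 1 and of 2 or more merged exons; points are medians over genes, bars run from the lower to the upper quartile, and n is the number of genes. At mean counts of 1000 to under 10000 the medians are 15.9% and 13.2%.

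The steadiest genes, taken among those whose mean count was 100 or more, were ENSPEMG00000013714 (BCV 10.2%), ENSPEMG00000026613 (10.4%, chr5:132336543-132336836) and ENSPEMG00000016991 (10.4%, chr14:71532698-71533756). The counts of ENSPEMG00000026613 ran from 860 to 1355 and those of ENSPEMG00000016991 from 1277 to 1758. ENSPEMG00000013714 shares exon bases with another gene, so its reads cannot be assigned with the same certainty. By the same count limit the most variable were ENSPEMG00000003567 on chromosome 6 (BCV 120%), ENSPEMG00000004203 on chromosome 2 (116%) and ENSPEMG00000028431 on chromosome 8 (105%). ENSPEMG00000003567 had 2462 counts in animal 36764, 698 in 36789, 280 in 36746 and 23 in 36907. ENSPEMG00000004203 reached 760 counts in animal 36789, where the remaining animals had 12 to 122. ENSPEMG00000028431 reached 701 there, and 27 to 229 elsewhere. Animal 36764 or 36789 was the highest for each of these genes. ENSPEMG00000004203 and ENSPEMG00000028431, with median counts of 70.5 and 68.5, passed the limit of 100 only through animal 36789. For them the limit itself fixed part of this pattern.

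High variation was also found where counts are large. Among the 145 genes whose mean count was 1000 or more, the CPM of the highest animal was a median of 1.62 times that of the lowest. It was under 1.5 times for 66 genes, at least 2 times for 50 and at least 10 times for 4. A BCV of at least 40% was found for 16 of the 140 genes with mean counts of 1000 to under 10000 (11.4%), against 5.70% of the genes of more exons at the same counts. At 10000 or more it was found for 0 of 5 genes, against 10.0%. At lower counts the shares were 36.3% against 50.6% (10 to under 100) and 14.4% against 13.6% (100 to under 1000). ENSPEMG00000000056 (chr7:53156482-53157768, minus strand, 1287 bases) led the 16 genes with a BCV of 82.7%. Its level was 10.3 CPM in animal 36764, 64.0 at the median and 230 in animal 36798, a ratio of 22.3 between the extremes. Animals 36764, 36789 and 36746 stood lowest, at 10.3, 18.0 and 27.6 CPM, and animals 36797, 36907 and 36798 highest, at 146, 214 and 230.

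Several of the 16 genes followed the same order of animals, a pattern picked out from the values and given as a description without a test. The correlation with ENSPEMG00000000056 on the log2 scale was at least 0.7 for 5 of the other 15 and at most -0.7 for another 5. No share over all genes stands beside these numbers, so they are not read as particular to single-exon genes. ENSPEMG00000025784 (R = 0.963), ENSPEMG00000021324 (0.909), ENSPEMG00000027750 (0.889) and ENSPEMG00000003492 (0.872) were low in animals 36764, 36789 and 36746. ENSPEMG00000027750 on chromosome 12 had 9.15 CPM in 36764 and 97.3 in 36907. In the opposite order went ENSPEMG00000013784 on chromosome 14 (R = -0.978), with 191 CPM in 36764 and 23.1 in 36907, and ENSPEMG00000001736 on chromosome 6 (R = -0.967), with 105 CPM in 36764 and 18.0 in 36907. These points share libraries and scaling factors. Without animals 36764 and 36789, R with ENSPEMG00000000056 was -0.950 for ENSPEMG00000013784. Over all 145 genes of that abundance the most similar one was ENSPEMG00000014944 (chr8:10314088-10316109, minus strand, 2022 bases), with R = 0.970, and 0.939 without the same 2 animals. It varied less, from 339 CPM through a median of 505 to 683. A different pattern was that of ENSPEMG00000029887 on chromosome 5, at 244 CPM in animal 36789 and 18.7 to 69.9 CPM elsewhere.

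**Figure D4:**
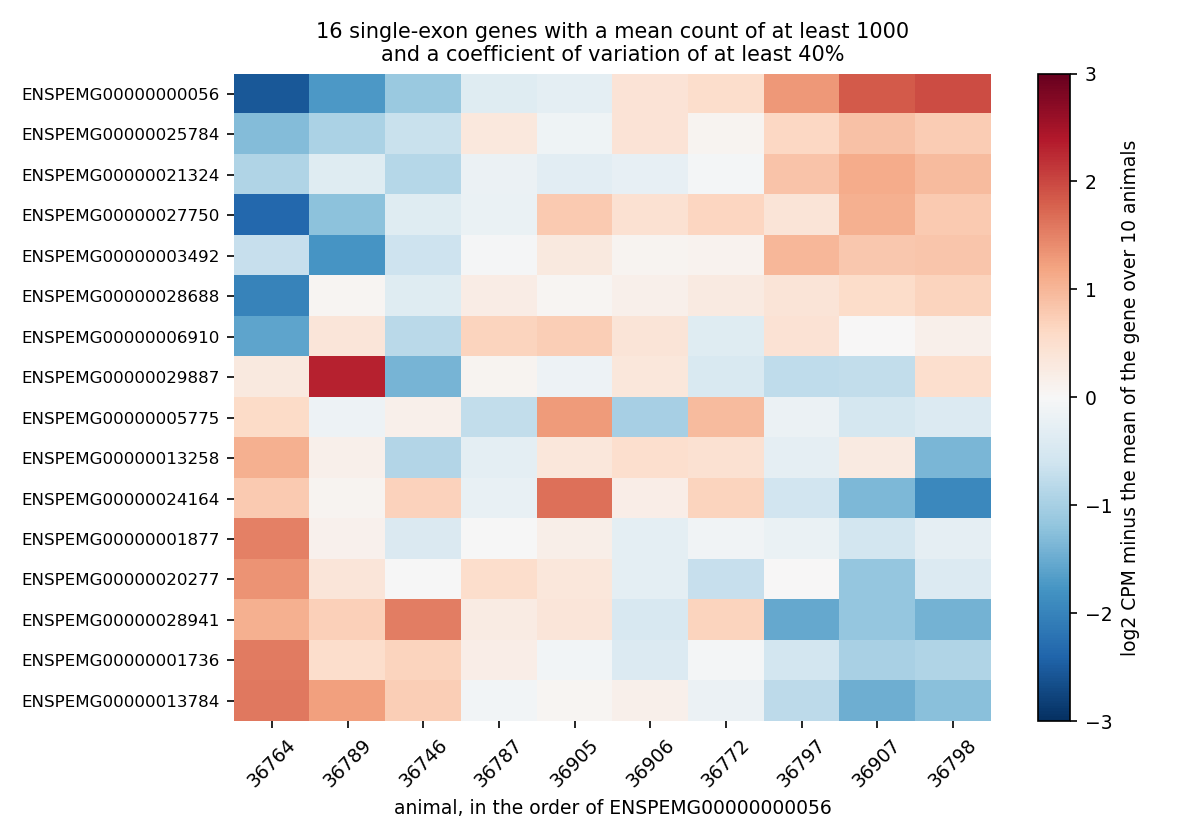
The 16 abundant single-exon genes whose BCV was 40% or more (rows, ordered by correlation with ENSPEMG00000000056) in 10 animals (columns, ordered by the level of ENSPEMG00000000056); colour is the log2 CPM minus the mean of the gene over the animals. The upper rows are low in animals 36764, 36789 and 36746, and the lowest 3 rows are high there.

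Which genes stood apart in 1 animal was asked with Dixon's gap test on the log2 CPM, at a level where chance flags about 1 gene in 20 when both ends are counted together, so that the rate for either end alone is lower. An outlying highest animal was found for 34 of the 900 genes (3.78%), against 4.92% of all 13935 genes tested, and an outlying lowest animal for 35 (3.89%), against 4.81%. Both shares lay below those of all genes, a difference that was not tested, and neither is read against chance here. Of the 34 genes with an outlying highest animal, 10 had a median count below 10. The rule could take these in through their high animal, so it fixed part of this number. The same mean count limit held for all 13935 genes. Animal 36789 was the outlying highest for 15 of the 34 genes and animal 36764 for 9. Over all genes the same animals were the outlying highest for 309 and 278 of 685. Animal 36764 was the outlying lowest for 18 of the 35, and without it 21 genes had an outlying lowest animal. The largest downward gaps were also in 36764. ENSPEMG00000013102 (chr2:109126081-109126626) had 43 counts there and 199 to 562 in the others, a gap of 2.36 on the log2 scale. ENSPEMG00000013198 on chromosome 14 had 6 counts there and 27 to 120 in the others, a gap of 1.99.

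In 8 genes (0.889%) the outlying animal was also at least 8 times above the next one, against 0.739% of all genes. Of these 8, 7 had their high value in animal 36789, and all 7 had a median count below 10, so they passed the rule through that animal. Without it, 1 such gene was found. ENSPEMG00000013607 (chr23:26275444-26276076, minus strand, 633 bases) had 322 counts in 36789 and 0 to 4 in the other animals. ENSPEMG00000013396 (chr23:26317887-26318546, plus strand, 660 bases), 41810 bases away, had 231 counts in 36789, 8 in 36797 and 0 to 2 in the others. The next in size were ENSPEMG00000028438 on chromosome 2, with 90 counts against 0 to 3, and ENSPEMG00000007156 on chromosome 3, with 135 against 0 to 6. The only one of the 8 outside this animal was ENSPEMG00000005644 (chr21:15294905-15295807), which reached 199 counts in animal 36906 and 6 to 19 elsewhere. Animal 36789 also had the smallest library, and its part in these values was not tested.

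The animal numbers fall into 2 runs, 36746 to 36798 (7 animals) and 36905 to 36907 (3 animals), whose meaning the labels do not give. As a check for a split between them, every gene was tested with edgeR's quasi-likelihood test. After Benjamini-Hochberg adjustment 0 of the 900 genes and 1 of 13935 genes (0.00718%) differed. At an unadjusted p below 0.05 these were 39 genes (4.33%), against 3.21% of all genes. The smallest edgeR p belonged to ENSPEMG00000006889 (chr18:4095976-4097088, minus strand), with 97 to 146 counts in the first run and 61 to 93 in the second. Its log2 difference was -0.82 ± 0.16 (SE, 7 against 3 animals, quasi-likelihood p = 0.000395, adjusted p = 0.986). DESeq2's Wald test called 2 of the 899 genes with an adjusted p (0.222%) and 7 of all 13927 (0.0503%). ENSPEMG00000006889 was one of them (DESeq2 adjusted p = 0.00400). The other was ENSPEMG00000028580 (DESeq2 adjusted p = 3.05e-06, edgeR adjusted p = 0.986), with 54 counts in animal 36746, 87 in 36764 and 0 in the other 8 animals. Its mean count of 14.1 met the rule only through these 2 animals of the first run. Its call is therefore not read as a difference between the runs. Higher in the second run with the smallest p were ENSPEMG00000030719 (log2 difference 0.35 ± 0.08, edgeR adjusted p = 0.986) and ENSPEMG00000005644, whose value rests on animal 36906.

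How far a single-exon gene just downstream of another gene varied with it differed widely from pair to pair. For 120 of the 143 such genes the upstream gene was expressed by the same limit, and the median Pearson R of log2 CPM over the 10 animals was 0.357 (quartiles -0.03 and 0.659), with 86 pairs above 0. Over 868 pairs in the same position whose downstream gene had more exons it was 0.159, with 549 above 0. At a mean count of at least 100 the medians were 0.635 and 0.158. Where the upstream gene had 1 exon they were 0.3055 (48 pairs) and 0.284 (43 pairs). Where it had more exons they were 0.4475 (72 pairs) and 0.155 (825 pairs). By distance the median for the single-exon genes was 0.503 up to 500 bases (28 pairs), 0.380 from 501 to 1000 (18 pairs), 0.381 from 1001 to 2000 (22 pairs) and 0.205 beyond 2000 bases (52 pairs). In the same order of distance it was 0.360 (48 pairs), 0.218 (61 pairs), 0.182 (190 pairs) and 0.142 (569 pairs) where the downstream gene had more exons. Gene pairs share libraries and scaling factors, so R is a description with no p. An R of at least 0.9 was reached by 11 of the 120 pairs (9.17%), against 3.34% of the pairs whose downstream gene had more exons and 4.05% of all pairs in this position. The single-exon genes lay closer to their partners, and up to 500 bases the shares were 10.7% and 10.4%. They were 11.1% (2 of 18 pairs) and 3.28% at 501 to 1000 bases, 18.2% (4 of 22 pairs) and 4.74% at 1001 to 2000 bases, and 3.85% (2 of 52 pairs) and 2.28% beyond that. Leaving out each animal in turn, 8 of the 11 stayed at 0.9 or more throughout. Of the 11 genes, 10 were shorter than 500 bases, 8 lay downstream of a gene of 2 or more exons, and 9 began within 2000 bases of it.

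Of these pairs, the 4 with the highest R whose upstream gene has 2 or more exons are described, a choice made after their values were seen. ENSPEMG00000024564 (chr7:39355148-39355465, minus strand, 318 bases) starts 626 bases after the end of the 24-exon gene ENSPEMG00000024138, and R was 0.997. Its counts ran from 837 to 2393 and those of the upstream gene from 7434 to 20405, both with animal 36764 highest. Its level per kb was 1.62 ± 0.0431 times that of the upstream gene (SD, n = 10). ENSPEMG00000026946 (chr6:40516824-40516976, plus strand, 153 bases) lies 2723 bases after the 9-exon gene ENSPEMG00000011590, with R = 0.996 and a ratio of 2.38 ± 0.0736. ENSPEMG00000025784, one of the 16 variable genes above (chr7:82410519-82410710, plus strand, 192 bases), lies 1114 bases after the 65-exon gene ENSPEMG00000023006, with R = 0.996 and a ratio of 1.98 ± 0.122. Its counts went from 1154 to 5985 and those of the upstream gene from 25832 to 153362. ENSPEMG00000028604 (chr1:82151196-82151384, plus strand, 189 bases) lies 595 bases after the 21-exon gene ENSPEMG00000020088, with R = 0.989 and a ratio of 1.66 ± 0.0337, and leaving out 1 animal R went down to 0.925. In all 4 pairs the level of the short gene was a near-constant multiple of the level upstream. The ratio was above 1 in 8 of the 11 pairs. Whether these exons belong to the transcript of the upstream gene was not tested, since counts per gene hold no reads that span both.

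**Figure D5:**
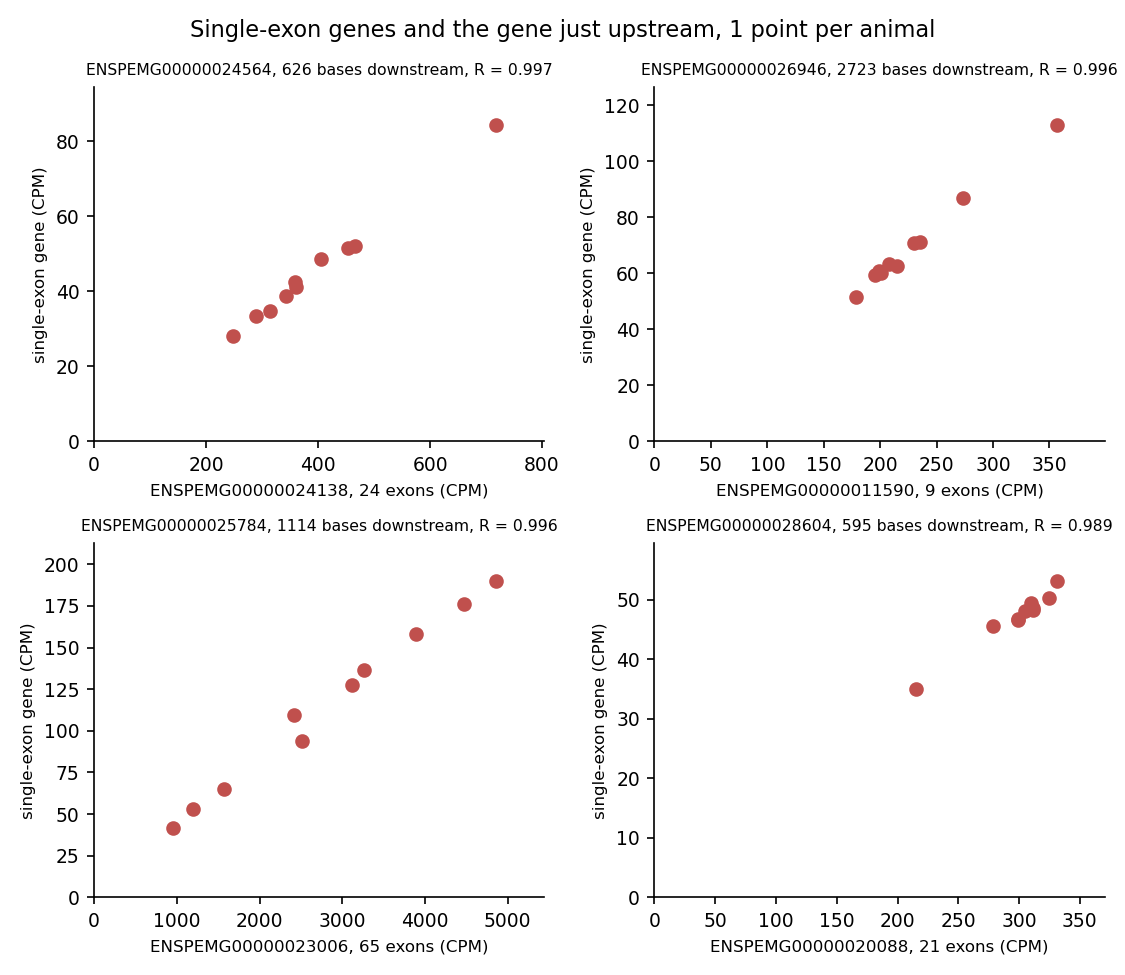
Level of 4 single-exon genes (vertical axes, CPM) against the gene of 2 or more exons just upstream on the same strand (horizontal axes, CPM), with 1 point per animal and axes that start at 0; R is Pearson's on log2 CPM. The points lie close to a line in each panel, with R from 0.989 to 0.997.

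For genes inside introns, R with the host was read in the same way. The 37 on the strand of their host were short (34 under 200 bases), 36 had a mean count below 100, and they lay in 29 host genes with a median mean count of 16965.1. Their median level per kb was 0.00865 of the host's, and it was under 0.1 of the host's for 31 and above it for 1. The median R with the host was 0.221, against 0.159 for 57 genes of more exons in the same position. This order turned without animal 36746 (0.104 against 0.175), without a filter (0.0547 against 0.156) and without normalization (0.226 against 0.262), so no direction is read from it. In the first run of 7 animals the median was 0.413, against 0.378 for the downstream genes. Just 1 of these pairs had mean counts of 100 or more on both sides. In it, ENSPEMG00000005775 (chr1:105302610-105302744, plus strand, 135 bases) had 583 to 2966 counts, more than its 17-exon host ENSPEMG00000017402 with 83 to 281. R was -0.07, and went from -0.30 to 0.195 when 1 animal was left out at a time. Up to 3 of the short genes shared a host, which was so in 4 hosts. The median R among the genes of a host was 0.645 in ENSPEMG00000019570 on chromosome 7, 0.229 in ENSPEMG00000012563 on chromosome 20, 0.0892 in ENSPEMG00000009100 on chromosome 8 and 0.00416 in ENSPEMG00000021495 on chromosome 12. R with the host ran from 0.539 to 0.733 in ENSPEMG00000019570 and from -0.74 to 0.513 in ENSPEMG00000021495.

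The 45 genes inside an intron on the opposite strand were of another size, with a median of 888 bases, and 40 had a length that is a multiple of 3. For the 39 with an expressed host the median level per kb was 0.591 of the host's, above the host's for 17. The median R was 0.137, against 0.311 for 60 genes of more exons. With 1 animal left out at a time, these went from 0.0569 to 0.304 and from 0.167 to 0.364. The order turned at a mean count of 100 (0.121 against 0.0856), without animals 36764 and 36789 (0.246 against 0.161) and, narrowly, without a filter (0.1000 against 0.0976), so no direction is read from it. Among 14 pairs with mean counts of at least 100 on both sides, R was highest for ENSPEMG00000028387 on chromosome 16 (0.607), ENSPEMG00000005060 on chromosome 7 (0.596) and ENSPEMG00000014944 (0.451). It was lowest for ENSPEMG00000029069 on chromosome 2 (-0.49), ENSPEMG00000012006 (-0.41) and ENSPEMG00000017487 (-0.34). Leaving out each animal in turn, R went from -0.58 to -0.20 for ENSPEMG00000029069, from -0.67 to 0.251 for ENSPEMG00000012006 and from -0.45 to 0.253 for ENSPEMG00000017487. The upper ends came without animal 36798 for the first gene and without 36764 for the others. Counting used exon bases and no strand setting is stated, so reads of a host cannot be told apart from those of a gene inside it.

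Expressed single-exon genes also stood side by side. In the order of genes along the chromosomes, 722 had no other member next to them, and the rest formed 49 runs of 2, 12 of 3, 5 of 4, 2 of 5, 1 of 6 and 1 of 8 genes. Over the 108 adjacent pairs the median R was 0.287, with 77 above 0 (71.3%), against 0.140 and 60.2% over 7791 adjacent pairs of genes of more exons. For the single-exon pairs it was 0.318 where both genes were under 200 bases (44 pairs) and 0.176 where both were longer (55 pairs). By distance it was 0.293 for those under 5 kb apart (68 pairs, 53 above 0). For those 5 kb apart or more it was 0.231 (40 pairs, 24 above 0). The pairs of genes of more exons were not split by distance, so the comparison with them is not matched for it.

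The longest run held 8 genes within 3426 bases (chr7:11713556-11716981), all on the plus strand and 73 to 138 bases long. Their mean counts went from 13.5 to 50.3, and the median R among them was 0.391. The run is not clear of other genes. Its first gene, ENSPEMG00000024845, lies in an intron of the 6-exon gene ENSPEMG00000023691 on the same strand, which had a mean count of 597.6. Its second, ENSPEMG00000005267, shares exon bases with another gene, and each of the others begins within 5 kb downstream of a gene. A denser signal was found on chromosome 1, where ENSPEMG00000006582, ENSPEMG00000006481 and ENSPEMG00000002747, of 148, 109 and 118 bases, follow each other on the minus strand (chr1:139122908-139123636). Their counts ran from 272 to 1128, from 151 to 659 and from 156 to 890. All 3 were high in animal 36787 and lowest in 36764, 36772 and 36798, and R between neighbours was 0.989 and 0.980.

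Longer genes made up the runs on chromosome 5. Between positions 99650770 and 99854045 of chromosome 5, 16 of the 20 annotated genes were expressed single-exon genes of 312 to 666 bases, 10 of them on the plus strand, with mean counts from 10.6 to 2310. ENSPEMG00000028580, seen in 2 animals only as given above, is one of them. A run of 5 on chromosome 21 held genes from 62 to 1932 bases long. In it, ENSPEMG00000010938 (chr21:2683654-2685579, minus strand), ENSPEMG00000028093 (chr21:2689903-2691831, plus strand) and ENSPEMG00000027556 (chr21:2705199-2707130, plus strand) measure 1926, 1929 and 1932 bases. ENSPEMG00000028093 had a mean count of 9224.5 and counts from 5472 to 13242. ENSPEMG00000027556 had a mean count of 3668.8 and counts from 2050 to 5695. The plus-strand genes, 13367 bases apart, had R = 0.987, and the CPM of the former was 2.55 ± 0.166 times that of the latter (SD, n = 10). ENSPEMG00000010938 had 225 to 386 counts and R of -0.06 and 0.04 with ENSPEMG00000028093 and ENSPEMG00000027556. Leaving out 1 animal, these values went from -0.22 to 0.362 and from -0.11 to 0.494. Both upper ends came without animal 36772. Uniquely mapped reads are lost or split where genes are nearly identical in sequence. How alike these are was not analysed here, so their counts are uncertain.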

How the data were processed

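RNA-seq counts per gene of 10 libraries, 1 per animal, were used. The authors prepared directional libraries, aligned the 150-base read pairs to HU_Pman_2.1 with STAR, kept uniquely mapped pairs and deposited whole-number counts per gene of the Ensembl annotation, made with featureCounts without normalization. The submitters' processing notes give FastQC 0.11.5, Trim Galore 0.4.5, STAR 2.7.2b, SAMtools 1.5 and Subread 1.5.3. No strand setting is stated. All sample columns were mapped to animals by name, and 0 columns were left out.

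Exons were merged per gene. Counts were scaled with TMM factors in edgeR 4.0.16 (R 4.3.3), and log2 CPM used a prior count of 2. Genes whose mean count was 10 or more entered every fit, including the edgeR quasi-likelihood test between runs of animal numbers, with Benjamini-Hochberg adjustment over all 13935. DESeq2 1.42.0 was an alternative. Dixon's test used a gap over range above 0.466. Permutation tests used 100000 resamples over 10 libraries, and every possible order where animals were left out. Position was assigned in a fixed order: shared exon bases, intron on the same strand, intron on the opposite strand, at most 5 kb downstream of a gene on the same strand, elsewhere. Genes named are the highest by level per kb and by mean count, the most and least variable, the extreme pairs with hosts, the largest gaps, the smallest p-values, those at the threshold and the longest run. Those said to be picked after their values were seen, the high-R pairs, the 16 variable genes, the runs on chromosomes 1, 5 and 21 and the genes of equal length, are outside that rule. The genes and all lists were chosen with earlier results of these data known. Scripts were tested on simulated data. Totals of 20811334 to 31912526 counts set the precision. Pairs of libraries differed beyond counting noise over the 900 genes (chi-square per degree of freedom of at least 10.6 in 45 pairs), so none was a copy. Symbols, sequences and marker genes were not analysed here, since the RefSeq table (HU_Pman_BW_mat_3.1, 37364 genes) carries 0 Ensembl identifiers and is of another assembly.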

Additional observations from a re-analysis of the deposited data

Results flagged for a closer look

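Of the 35 single-exon genes with an outlying lowest animal, 18 were lowest in animal 36764. This number was far from those of the other 9 animals, which had 0 to 5. The gap was 0.722 of the range, and the limit for calling a gap is one that chance passes in about 1 of 20 groups of values. Over all 13935 genes the same animal was the outlying lowest for 373 of 670.

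Of the 8 single-exon genes with 1 animal at least 8 times above the next, 7 had that value in animal 36789, and the other animals had 0 or 1. Over all genes the same animal held 89 of 103. All 7 of these genes had a median count below 10 and met the rule through animal 36789, so the choice of the genes itself fixed much of this number, and at a mean count of 100 there were 0 such genes. No chance rate is therefore set beside it. Depth, with 20811334 counts the lowest in this library, moves with the second pattern, and its part was not tested.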

How the results depend on the processing

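Of 733 recomputed values 657 were classed as the same, 57 as moved, 13 as weaker, 5 as stronger and 1 as reversed. The first class allowed changes of sign and size. Within it, R of ENSPEMG00000012006 with its host went from -0.414 to 0.251 without animal 36764. With 100 or 1 in place of 10 as the lowest mean count, 512 or 1556 genes are members. At a mean count of 100 the numbers with an outlying highest, an outlying lowest and a far higher animal were 12, 16 and 0, the far higher share of all genes was 0.135%, the share on genes under 200 bases 0.0707%, and the BCV difference at 100 to under 1000 counts 0.361 percentage points. Median R was then 0.635 downstream, -0.0693 inside introns on the same strand (1 pair) and 0.0856 for genes of more exons on the opposite strand. Without a filter the 3 numbers were 637, 63 and 13 (11.9% of all genes with an outlying highest animal), and median R was 0.0547 for same-strand intronic members, 0.154 for adjacent members, and 0.0976, 0.131 and 0.102 for opposite-strand intronic, downstream and adjacent genes of more exons.

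Without animals 36764 and 36789 the numbers were 20, 22 and 2 (2.32%, 2.72% and 0.0502% of all genes), r of the intronic share was 0.716 (permutation p = 0.0465), the BCV difference at 10 to under 100 counts was -4.23 points, 0 genes differed between the runs of animal numbers, and median R of downstream and adjacent genes of more exons was 0.126 and 0.122. In the first 7 animals the BCV difference at 100 to under 1000 counts was 1.17 points, and median R was 0.413 for same-strand intronic members, 0.383 for adjacent members and 0.188 for downstream genes of more exons. Without normalization 6.85% of all genes had an outlying lowest animal, and downstream and adjacent genes of more exons had median R of 0.260 and 0.202. Spearman's rho gave 0.127 for the former. Within 1 kb, downstream R was 0.460 for members and 0.295 for the others. DESeq2 called 2 members and 7 genes.

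Leaving out each animal, r of the share ranged from -0.691 to -0.477 for all members and from 0.00112 to 0.726 for those under 200 bases. Outlying highest numbers were 27 to 37, outlying lowest 21 to 40 and far higher 1 to 9 (0.108% to 0.818% of all genes), and 0 to 1 genes differed between the runs. For these shifts the cause was not tested. With 10 libraries and many mean counts under 100, R of single pairs is imprecise.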
